A study of Mus musculus with 5 samples.

Results

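The genes described here were the 6 members of the platelet-derived growth factor (PDGF) system, the 4 ligand genes *Pdgfa*, *Pdgfb*, *Pdgfc* and *Pdgfd* and the 2 receptor genes *Pdgfra* and *Pdgfrb*, chosen by name from 32286 features without use of their values. They were followed in mouse synovial sarcoma (SyS) tumor cells and in the mural, fibroblast and endothelial cells of the same tumors. All 5 tumors came from *hSS2* mice, in which human *SS18::SSX2* is expressed from the *Rosa26* locus after TATCre protein is injected into a limb, and they were taken when the animals became morbid. Each tumor was dissociated and profiled by single-cell RNA sequencing with droplet-based 3′ chemistry. The labels name the histology as biphasic (2 tumors, called BP), monophasic (1, MP), both of these (1, MP+BP) and poorly differentiated with monophasic (1, PD+MP). No tumor without the fusion was part of the series, the age of the animals was not given in the labels, and the labels of both BP tumors share a leading number, and whether they come from the same animal is not stated. The labels call the tumors separate samples, and p-values measure the spread between these 5 only.

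PDGF ligands are secreted as disulfide-linked dimers that bring receptor tyrosine kinases of class III together at the cell surface. PDGF-AA and PDGF-CC act mainly through the alpha receptor, PDGF-DD mainly through the beta receptor, and PDGF-BB through both. In growing vessels, endothelial cells release PDGF-B, and the pericytes and smooth muscle cells that wrap them (mural cells) carry the beta receptor, whereas the alpha receptor is typical of fibroblasts and mesenchymal progenitors.

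Unique molecular identifiers (UMIs), which tag each captured RNA molecule, summed to between 89996321 and 118649103 per tumor. Of 51670 called cells, 39559 were kept, with a median of 6339 to 8535 UMIs per cell in a tumor. Cells were named from marker lists that held none of the 6 genes, which were also left out of the features used for clustering. This gave 26364 SyS-like, 1272 mural-like, 2426 endothelial-like, 3472 macrophage-like and 147 fibroblast-like cells. A further 4275 cells in 2 clusters led by collagen genes carried 13 and 11 of the 18 SyS markers but stayed unnamed, and 2786 of them were from MP+BP. The 18 SyS markers together reached 4500 to 6190 CPM (counts scaled to a total of 1000000 UMIs) in SyS-like cells and 235 to 714 CPM in mural-like cells. Clusters were named from these markers, so the sums cannot check the names. EGFP, a reporter sequence in the reference, was in no marker list and was not a clustering feature. It was at 28.3 to 42.3 CPM in SyS-like, 0 to 7.36 CPM in mural-like and 0 to 1.96 CPM in endothelial-like cells. It was at 26.7 to 38.5 CPM in the collagen-led cells, within or near the SyS-like range, and at 6.18 to 36.0 CPM in fibroblast-like cells. PD+MP stood apart: its SyS-like cells held *Xist* at 0.197 CPM and *Uty* at 135 CPM, against *Xist* at 1560 to 4030 CPM and *Uty* at no more than 0.0399 CPM in the other tumors. PD+MP also gave only 39 mural-like and 81 endothelial-like cells. The libraries shared 229 cell barcodes between 2 tumors and 2 barcodes among 3.

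Levels are CPM of the UMIs summed over the cells of 1 class in 1 tumor, given as mean ± SD over 5 tumors unless stated, and tumors are listed in the order BP replicate 1, BP replicate 2, MP, MP+BP and PD+MP. Classes were compared with edgeR's quasi-likelihood test on those sums, with Benjamini-Hochberg adjustment over all genes tested and a call at an adjusted p under 0.05. Tests between classes kept the tumor as a block. Intervals on single values are exact 95% Poisson intervals and cover counting error only. Where a sum held 0 UMIs, the level said to be allowed is that of 3 UMIs in that sum. The 3 class comparisons drew on the same sums and are therefore not independent of each other.

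*Pdgfa* (ENSMUSG00000025856, GRCm38 chr5:138976014-138997370, minus strand), which encodes the chain of PDGF-AA, was high in mural-like and SyS-like cells and low in endothelial-like cells. Mural-like cells held 323, 242, 306, 270 and 265 CPM. SyS-like cells held 242, 265, 122, 162 and 115 CPM. Endothelial-like cells held 35.6, 37.4, 28.7, 62.0 and 8.58 CPM. Among them, the sub-cluster of 135 cells described below for *Pdgfrb*, led by mural and fibroblast markers, held *Pdgfa* at 117 CPM (105 to 131). The other endothelial-like cells held 24.4 CPM (22.0 to 27.0). Mural-like values varied little between tumors and overlapped the upper SyS-like values of the BP tumors, whereas no endothelial-like value reached the lowest SyS-like value. *Pdgfa* was higher in mural-like than in SyS-like cells by 0.93 ± 0.28 (log2 fold change ± SE, adjusted p = 0.014), in 4 of 5 tumors, and the call was lost without MP (0.73, adjusted p = 0.087). Endothelial-like cells were lower than SyS-like cells (-2.16 ± 0.29, adjusted p = 2.4e-05) and mural-like cells exceeded endothelial-like cells by 3.09 ± 0.30 (adjusted p = 3.4e-06). Across all classes the means ran from 281 ± 32.9 CPM in mural-like cells through mast-like (208 ± 75.1, n = 3), SyS-like (181 ± 69.0), collagen-led (150 ± 42.4), macrophage-like (97.9 ± 42.5), fibroblast-like (96.8 ± 70, n = 3), neutrophil-like (35.8 ± 25.5), endothelial-like (34.5 ± 19.2) and T or NK-like (18.0 ± 6.68) to B-like cells (15.7 ± 17.9). Every neighboring pair in that order overlapped in range. Fibroblast-like cells held 115 CPM in BP replicate 1 (10 cells), 156 CPM in MP+BP (12 cells) and 19.4 CPM in PD+MP (123 cells). The 18 SyS markers summed to 616 to 2690 CPM in mast-like and 797 to 2420 CPM in fibroblast-like cells. Their part in these *Pdgfa* levels was not tested.

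*Pdgfb* (ENSMUSG00000000489, chr15:79995874-80014977, minus strand), the ligand gene of vessel maturation, was highest in endothelial-like cells. Those cells held 150, 117, 150, 164 and 215 CPM. SyS-like cells held 33.3, 29.5, 14.7, 21.9 and 4.89 CPM. The endothelial-like level exceeded the SyS-like level in 5 of 5 tumors without overlap, with the widest gap in PD+MP. Mural-like cells, at 19.3, 14.3, 19.3, 28.5 and 15.6 CPM, lay within the SyS-like range. Against SyS-like cells, *Pdgfb* was higher by 3.27 ± 0.40 in endothelial-like cells (adjusted p = 9.7e-06), while the mural-like difference of 0.24 ± 0.44 did not pass (adjusted p = 0.69). Mural-like cells were lower than endothelial-like cells (-3.02 ± 0.45, adjusted p = 1.3e-04). Macrophage-like cells came second in the order, at 115 ± 38.5 CPM (58.8 to 159) against 159 ± 35.5 CPM in endothelial-like cells, and the ranges overlapped. The other classes had mean levels of 27.6 ± 22.5 CPM (collagen-led), 20.9 ± 11.4 (SyS-like), 19.4 ± 5.56 (mural-like), 15.2 ± 14.4 (T or NK-like), 14.2 ± 7.72 (neutrophil-like), 3.47 ± 4.75 (B-like) and 1.71 ± 2.96 (mast-like, n = 3), each overlapping its neighbor. Fibroblast-like cells had 0 UMIs in each of the 3 tumors with at least 10 such cells, which allows up to 2.65 CPM in PD+MP, where there were 123.

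*Pdgfc* (ENSMUSG00000028019, chr3:81036416-81214040, plus strand) encodes a latent ligand that must be cut to free its growth factor domain. It was low in both vascular classes. SyS-like cells held 17.7, 14.0, 23.4, 27.1 and 10.9 CPM. Mural-like cells held 2.32, 2.86, 6.91, 12.0 and 7.79 CPM, on 2 to 19 UMIs each. Endothelial-like cells held 5.62, 9.78, 2.64, 4.13 and 3.43 CPM. All endothelial-like values lay under every SyS-like value, and the mural-like value was the lower one within each of 5 tumors. The log2 fold change against SyS-like cells was -1.65 ± 0.38 in endothelial-like cells (adjusted p = 0.0019) and -1.38 ± 0.43 in mural-like cells (adjusted p = 0.017). The mural-like call was lost without BP replicate 1 (-1.14, adjusted p = 0.078) and without endothelial-like and mural-like sub-clusters that had a marker of another class among their 10 leading genes (-1.27, adjusted p = 0.091). Mural-like and endothelial-like cells differed by 0.28 ± 0.49 (adjusted p = 0.71). Macrophage-like cells led the order with 93.9 ± 29.7 CPM, then collagen-led cells with 69.6 ± 14.9, fibroblast-like with 41.0 ± 34.1 (n = 3), mast-like with 34.2 ± 47.9 (n = 3) and SyS-like with 18.6 ± 6.64 CPM. Mural-like (6.37 ± 3.95), endothelial-like (5.12 ± 2.82), neutrophil-like (4.98 ± 8.32), B-like (3.50 ± 7.82) and T or NK-like cells (2.19 ± 3.00) followed, and all neighbors overlapped. In MP+BP the SyS-like clusters of at least 50 cells spread from 14.7 to 68.7 CPM, the widest range of this gene within a tumor.

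*Pdgfd* (ENSMUSG00000032006, chr9:6168584-6378850, plus strand), whose product is also latent and binds the beta receptor, was highest in endothelial-like cells. Endothelial-like cells held 79.6, 80.7, 75.2, 126 and 196 CPM. SyS-like cells held 4.71, 1.75, 1.49, 1.03 and 0.0423 CPM, the last from 3 UMIs in 6271 cells. Mural-like cells held 8.49, 4.29, 22.2, 10.1 and 11.7 CPM. Every endothelial-like value lay above all mural-like and SyS-like values, and the mural-like value exceeded the SyS-like value within each tumor although the ranges overlapped. The difference was 6.36 ± 0.78 for endothelial-like against SyS-like cells (adjusted p = 1.1e-05) and -3.17 ± 0.80 for mural-like against endothelial-like cells (adjusted p = 0.0068). For mural-like against SyS-like cells it was 3.18 ± 0.88 (adjusted p = 0.0091), and this call was lost without MP (2.47, adjusted p = 0.11), the tumor with 61 of the mural-like UMIs. In order, means were 111 ± 51.4 CPM in endothelial-like, 35.3 ± 38.8 in fibroblast-like (n = 3), 11.4 ± 6.66 in mural-like, 10.8 ± 6.82 in collagen-led, 3.06 ± 6.84 in neutrophil-like, 1.97 ± 4.41 in T or NK-like, 1.80 ± 1.75 in SyS-like and 0.176 ± 0.206 CPM in macrophage-like cells. Each of these overlapped the next, and B-like and mast-like cells had no *Pdgfd* UMI. Fibroblast-like cells ranged from 0 UMIs in BP replicate 1, which with 10 cells allows up to 21.6 CPM, to 76.8 CPM in PD+MP.

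*Pdgfra* (ENSMUSG00000029231, chr5:75152292-75198215, plus strand), the alpha receptor gene, was carried by SyS-like, collagen-led and fibroblast-like cells. SyS-like cells held 85.0, 91.6, 82.4, 93.1 and 25.3 CPM, so that 4 tumors lay close together and PD+MP lay apart. The 95% interval of the PD+MP value was 24.2 to 26.5 CPM on 1796 UMIs. Collagen-led cells held 90.5, 105, 85.7, 124 and 136 CPM and did not share the drop in PD+MP, where they numbered 226. Fibroblast-like cells held 137 CPM in BP replicate 1, 127 CPM in MP+BP and 160 CPM in PD+MP. The 18 SyS markers summed to 797 to 2420 CPM in these cells with none at 0, and their part in the fibroblast-like *Pdgfra* level was not tested. Both vascular classes were low, with 6.17, 5.72, 2.55, 12.9 and 3.90 CPM in mural-like and 3.33, 8.10, 1.23, 4.13 and 0 CPM in endothelial-like cells, where the 0 in PD+MP allows up to 5.15 CPM. No value of either vascular class reached the SyS-like range. The log2 fold change against SyS-like cells was -3.56 ± 0.37 in mural-like (adjusted p = 3.9e-06) and -4.39 ± 0.34 in endothelial-like cells (adjusted p = 1.3e-07). Mural-like and endothelial-like cells differed by 0.83 ± 0.45 (adjusted p = 0.17), which passed only without BP replicate 2 (1.30, adjusted p = 0.045). The SyS markers, at 235 to 714 CPM in mural-like and 146 to 317 CPM in endothelial-like cells with 1 marker of 18 at 0 in each (*Cbln4* and *Insm1*), were likewise low but present there, and their part in these *Pdgfra* counts was not tested.

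The whole order for *Pdgfra* ran from fibroblast-like cells at 141 ± 17.0 CPM (n = 3) through collagen-led (108 ± 21.6), SyS-like (75.5 ± 28.4), neutrophil-like (24.9 ± 18.2), mast-like (20.6 ± 11, n = 3), T or NK-like (13.3 ± 12.0), mural-like (6.24 ± 3.98), endothelial-like (3.36 ± 3.12) and macrophage-like (2.15 ± 1.31) to B-like cells (1.72 ± 3.85), with overlap between all neighbors. The SyS markers summed to 240 to 2480 CPM in neutrophil-like and 616 to 2690 CPM in mast-like cells, and their part there was not tested. Within PD+MP the low level was shared by all of its SyS-like clusters of at least 50 cells, which ranged from 18.3 to 28.9 CPM in 5 clusters. Across the SyS-like clusters of the other tumors the lowest value was 43.3 CPM, in MP, and the highest was 131 CPM, in BP replicate 2.

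*Pdgfrb* (ENSMUSG00000024620), the beta receptor gene, was highest in mural-like cells, with fibroblast-like cells next. Mural-like cells held 688, 808, 695, 546 and 620 CPM. SyS-like cells held 3.88, 4.03, 3.92, 7.06 and 0.564 CPM. Fibroblast-like cells held 173 CPM in BP replicate 1 (10 cells), 117 CPM in MP+BP (12 cells) and 116 CPM in PD+MP (123 cells). The 12 mural markers summed to 224 to 2080 CPM in fibroblast-like cells with none at 0, and their part in these *Pdgfrb* levels was not tested. No class overlapped the mural-like range, and fibroblast-like cells in turn lay above the endothelial-like range. The mural-like mean was 173 times the SyS-like mean (log2 fold change 7.82 ± 0.55, adjusted p = 1.0e-07) and 16.2 times the endothelial-like mean (4.18 ± 0.48, adjusted p = 1.4e-05). In order, the means were 671 ± 97.1 CPM in mural-like, 135 ± 32.5 in fibroblast-like (n = 3), 41.3 ± 15.2 in endothelial-like, 17.7 ± 7.72 in collagen-led, 7.47 ± 4.40 in neutrophil-like, 3.89 ± 2.30 in SyS-like, 2.85 ± 4.94 in mast-like (n = 3) and 1.16 ± 0.640 CPM in macrophage-like cells. Collagen-led and neutrophil-like cells did not overlap, the remaining neighbors down to macrophage-like cells did, and B-like and T or NK-like cells had no *Pdgfrb* UMI.

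Endothelial-like *Pdgfrb* came largely from a small group of cells. The class held 15, 43.8, 51.9, 44.3 and 51.5 CPM, above SyS-like cells in 5 of 5 tumors (log2 fold change 3.64 ± 0.47, adjusted p = 1.7e-05). A sub-cluster of 135 cells, 5.56% of the class, was led by *Col3a1*, *Rgs5*, *Col1a2*, *Postn* and *Higd1b*, which are markers of mural cells and fibroblasts, and held 590 of the 704 UMIs. It held *Pdgfrb* at 226 CPM (208 to 245), against 7.39 CPM (6.10 to 8.88) in the other endothelial-like cells. Of the endothelial-like cells, 12 of 611 in BP replicate 1, 31 of 561 in BP replicate 2, 49 of 653 in MP, 36 of 520 in MP+BP and 7 of 81 in PD+MP were in it. Without them the endothelial-like values were 7.02, 7.51, 6.67, 6.09 and 23.5 CPM, with a mean of 10.2 ± 7.49. With this and every other sub-cluster of 3 or more leading markers of another class left out, an alternative added after the data were seen, the difference from SyS-like cells was 1.42 (adjusted p = 0.029). The 12 mural markers summed to 658 to 1470 CPM in endothelial-like, 16500 to 23400 CPM in mural-like and 31.5 to 177 CPM in SyS-like cells, with no marker at 0, and their part in the result was not tested.

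**Figure D1:**
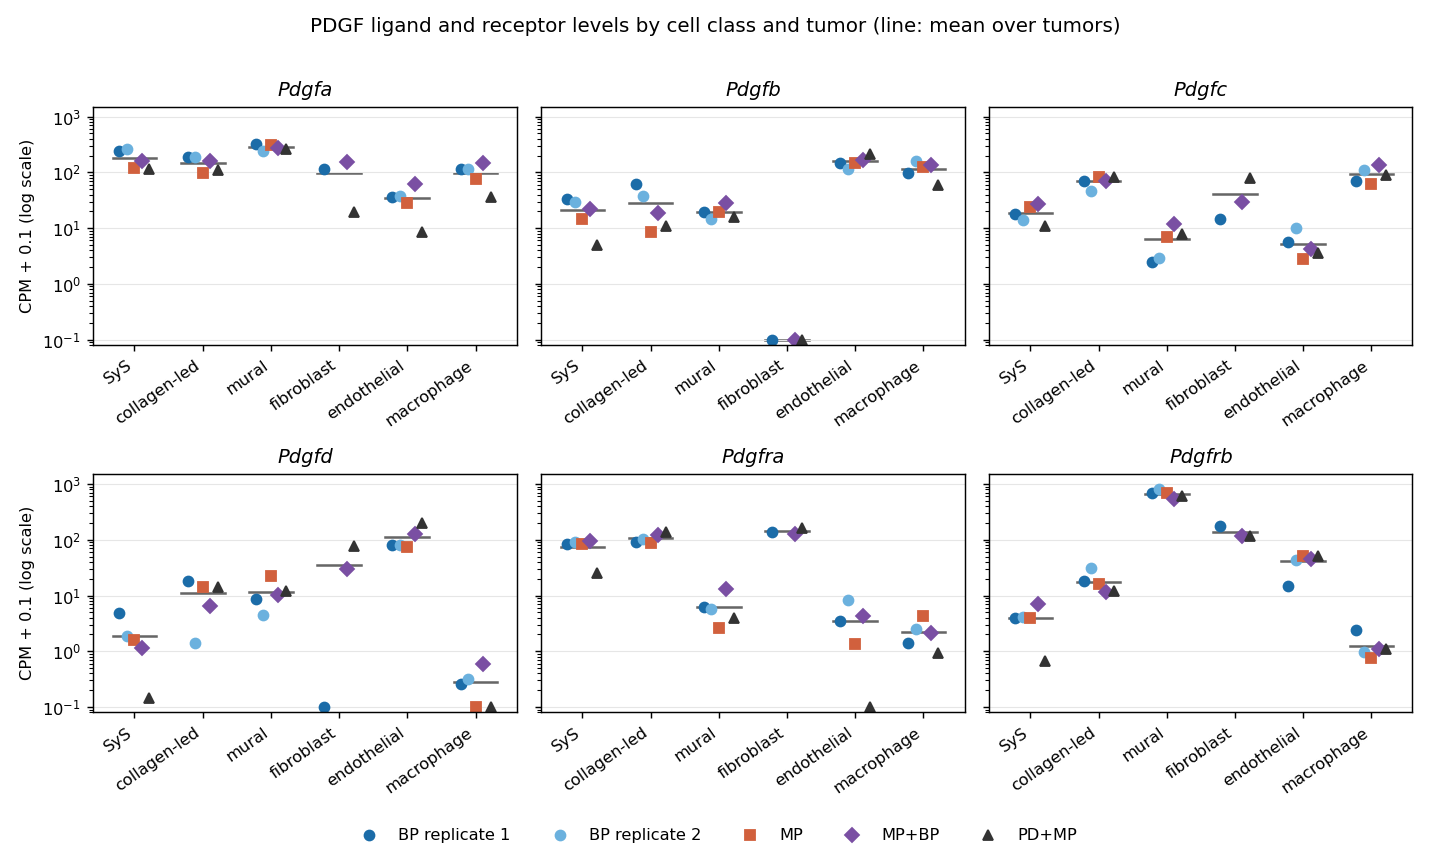
CPM + 0.1 on a log scale (vertical) of each gene in 6 cell classes (horizontal), with 1 point per tumor that had at least 10 cells of the class and a grey line at the mean over tumors. *Pdgfrb* in mural-like cells sits between 546 and 808 CPM and *Pdgfb* and *Pdgfd* are highest in endothelial-like cells, while the PD+MP triangle for *Pdgfra* in SyS-like cells sits at 25.3 CPM, under the other 4 tumors.

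Upstream sequence is shown for *Pdgfa* and *Pdgfra*, of which SyS-like cells held most UMIs, and for the endothelial ligand gene *Pdgfd*, as annotated starts whose use in these cells was not measured. Each line holds the 250 bases before a RefSeq transcript start on GRCm38.p6, read 5′ to 3′ on the strand of the gene. Matches on either strand to the GC box GGGCGG, the E-box CACGTG, the ETS site CCGGAA and the letters TATAAA of the TATA box, are in capitals. The regions are chr5:138994945-138995194 on the minus strand, chr5:75152001-75152250 on the plus strand and chr9:6168236-6168485 on the plus strand.
Pdgfa: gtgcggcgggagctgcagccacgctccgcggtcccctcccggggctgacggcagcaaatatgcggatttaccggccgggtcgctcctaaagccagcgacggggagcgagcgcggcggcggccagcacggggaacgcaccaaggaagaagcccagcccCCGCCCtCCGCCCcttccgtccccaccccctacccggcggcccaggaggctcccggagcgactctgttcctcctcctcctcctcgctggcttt
Pdgfra: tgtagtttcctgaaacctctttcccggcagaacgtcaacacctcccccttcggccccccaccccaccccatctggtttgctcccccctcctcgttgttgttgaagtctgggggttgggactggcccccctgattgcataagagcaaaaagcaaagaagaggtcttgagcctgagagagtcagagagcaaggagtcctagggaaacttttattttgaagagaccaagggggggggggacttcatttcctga
Pdgfd: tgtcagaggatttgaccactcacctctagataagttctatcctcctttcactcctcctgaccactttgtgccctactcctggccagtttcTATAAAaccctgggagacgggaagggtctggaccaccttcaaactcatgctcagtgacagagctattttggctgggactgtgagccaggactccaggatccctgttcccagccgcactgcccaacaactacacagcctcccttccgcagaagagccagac

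The *Pdgfa* window was GC-rich (72.4%) and held 2 GC boxes on the opposite strand, 88 and 81 bases before the start. The *Pdgfra* window (54.4% GC) held none of the 4 motifs, and the *Pdgfd* window (53.6% GC) held a TATA box 155 bases before the start. Over 32851 RefSeq promoter windows of the same length the median GC content was 52.4%, and 32.7% held a GC box, 12.4% a TATA box, 6.02% an E-box and 12.0% an ETS site. A second RefSeq start of *Pdgfa*, at chr5:138994282-138994531, had 1 GC box 55 bases upstream and 66.4% GC, and the window before *Pdgfc* had no match and 50.8% GC. In the GENCODE annotation 232 bases of the upper *Pdgfa* window are exonic. Exons of *Pdgfa* overlap the antisense gene *6330403L08Rik*, those of *Pdgfc* the antisense *Gm16000*, and those of *Pdgfra* the antisense *Gm42802* and *Gm42803*, so reads in these stretches depend on how the counting used strand. *Mir7025* overlaps *Pdgfra* on the same strand, where strand cannot separate reads. A match is a description of letters and not a tested binding site.

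SyS-like cells were the largest class, at 48.1% to 79.5% of the kept cells of a tumor. Their median of 9380 UMIs per cell was also above the 4032 of mural-like and the 4588 of endothelial-like cells. The class with the highest level was not always the class that held most transcripts. SyS-like cells held 62.9% to 94.2% of the *Pdgfa* UMIs of a tumor, whereas mural-like cells, with the highest level, held 0.674% to 7.89%. For *Pdgfra* the SyS-like share was 60.8% to 97.7%, with collagen-led cells at 38.2% in MP+BP. Most of the alpha receptor and of the PDGF-A transcripts recovered from a tumor were therefore in the same class of cells. That class also held the most UMIs over all genes, in MP+BP 50308265 against 23723847 in collagen-led cells. Its share of all UMIs is not given here, so these shares do not by themselves set the 2 genes apart from others. *Pdgfb* UMIs were divided among SyS-like (40.1% to 64.4%), endothelial-like (10.5% to 34.9%) and macrophage-like cells (10.9% to 40.8%). *Pdgfc* UMIs lay in SyS-like (41.3% to 84.4%), macrophage-like (8.08% to 35.5%) and collagen-led cells (4.70% to 49.3%). Endothelial-like cells held 50% to 69.2% of the *Pdgfd* UMIs, and fibroblast-like cells held 38.2% in PD+MP. Mural-like cells held 41.2% to 75.6% of the *Pdgfrb* UMIs, the largest share of a class in each tumor but under 50% in BP replicate 2, MP+BP and PD+MP. SyS-like cells held 10.4% to 27.6%, and fibroblast-like cells 34.2% in PD+MP. These shares follow the cells recovered after dissociation.

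**Figure D2:**
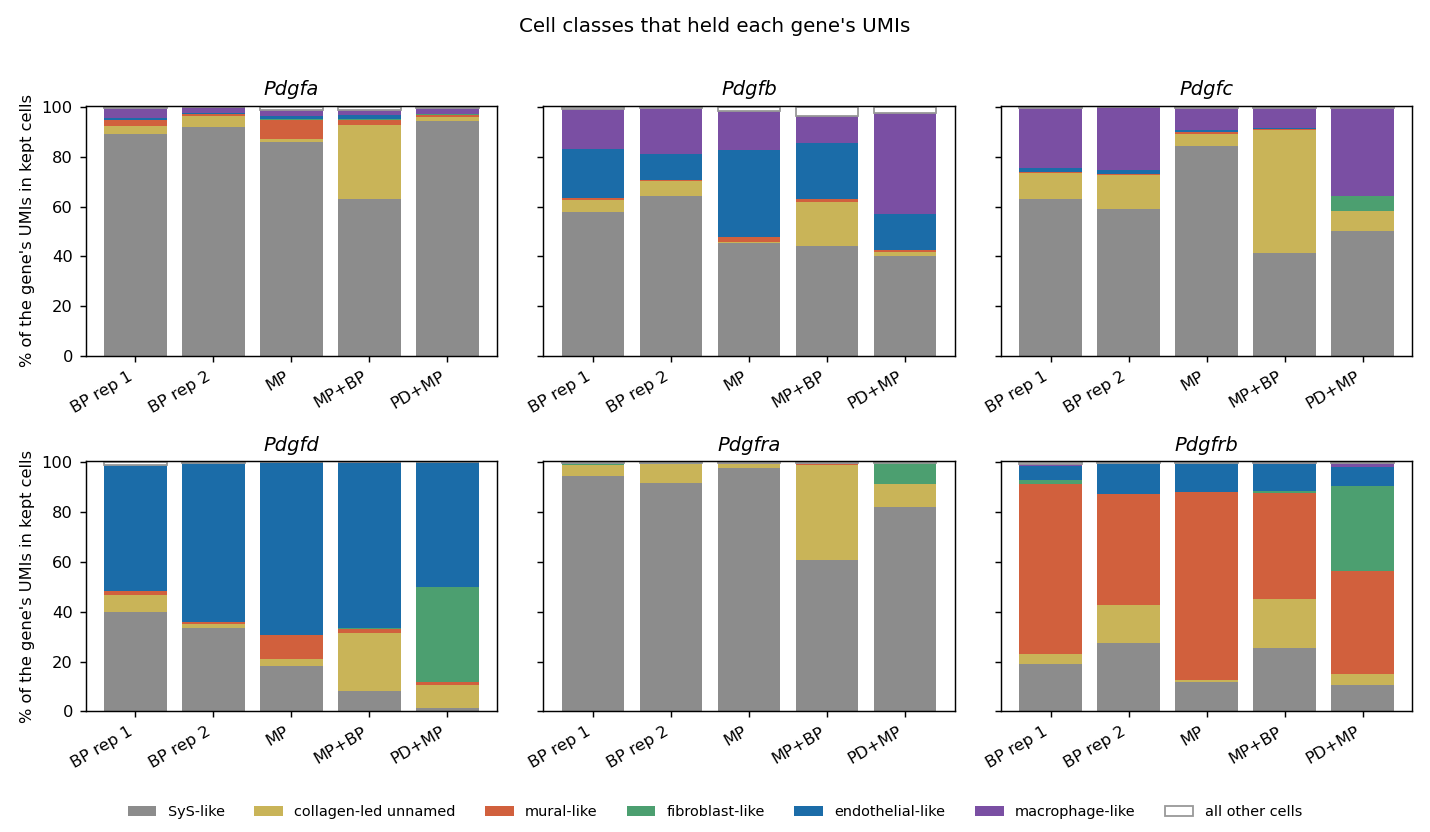
Percent of each gene's UMIs in kept cells (vertical) held by each cell class, stacked per tumor (horizontal), with all other cells in white. SyS-like cells hold 62.9% to 94.2% of *Pdgfa*, endothelial-like cells 50% to 69.2% of *Pdgfd*, and mural-like cells 41.2% to 75.6% of *Pdgfrb*.

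Single cells were compared after each was thinned to 2000 UMIs, which left out 1854 SyS-like, 158 mural-like and 449 endothelial-like cells. Before thinning, 67.2% of SyS-like cells (median 9380 UMIs) had a *Pdgfa* UMI and 45.4% a *Pdgfra* UMI, and after it 27.4% (26.9 to 28.0, exact binomial 95% interval) and 12.6% (12.2 to 13.0). In T or NK-like cells, taken as background because lymphocytes are not a known source of either, 3.33% (1.35 to 6.75) of 210 thinned cells had a *Pdgfa* UMI and 0.476% a *Pdgfra* UMI, against 3.90% and 2.92% of 308 cells before thinning, at a median of 2406 UMIs. The share of mural-like cells with a *Pdgfrb* UMI was 72.1% after thinning and 87.4% before, at a median of 4032 UMIs, and no T or NK-like cell of 210 had one. Endothelial-like cells had *Pdgfb* in 24.8% and *Pdgfd* in 16.4% of thinned cells, and in 47.4% and 32.4% before thinning at a median of 4588 UMIs. Of thinned T or NK-like cells, 2.38% had *Pdgfb* and 0 of 210 had *Pdgfd*.

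In SyS-like cells *Pdgfa* was seen about as often in cells with a *Pdgfra* UMI as in cells without one. Of 3090 thinned SyS-like cells with a *Pdgfra* UMI, 844 (27.3%) also had a *Pdgfa* UMI, against 27.5% of the 21420 without *Pdgfra*. Within tumors the share with *Pdgfa* was 32.0% against 35.3% in BP replicate 1, 36.1% against 38.1% in BP replicate 2, 18.4% against 19.6% in MP, 23.0% against 26.5% in MP+BP and 17.2% against 18.4% in PD+MP. It was thus slightly lower beside *Pdgfra* in each of the 5. For *Pdgfb* and *Pdgfrb*, 28 of 803 mural-like cells with the receptor (3.49%) and 6.11% of the 311 without it had the ligand. These cells share their tumors and are described without a test.

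Between mural-like and SyS-like cells 5 of the 6 genes were called, against 46.9% of 14892 genes tested, with *Pdgfa*, *Pdgfd* and *Pdgfrb* higher (20.5% of all genes) and *Pdgfc* and *Pdgfra* lower (26.5%) in mural-like cells. The count was 3 without MP. Between endothelial-like and SyS-like cells all 6 were called, against 60.7% of genes, with *Pdgfb*, *Pdgfd* and *Pdgfrb* higher (25.8%) and the other members lower (34.9%). Between mural-like and endothelial-like cells 4 of 6 were called, against 38.1% of genes, with *Pdgfa* and *Pdgfrb* higher (20.6%) and *Pdgfb* and *Pdgfd* lower (17.5%) in mural-like cells. The alpha receptor thus marked off SyS-like cells from both vascular classes, and the beta receptor marked off mural-like cells from both other classes. Endothelial-like *Pdgfrb* overlapped the SyS-like range once the sub-cluster led by mural and fibroblast markers was left out. It was then at 6.09 against 7.06 CPM in MP+BP and still above SyS-like cells in each other tumor. *Pdgfc* was lower in both vascular classes, but its mural-like and SyS-like ranges overlapped. That mural-like call was lost without BP replicate 1 (adjusted p = 0.078) and without sub-clusters led by another class (adjusted p = 0.091). Over all genes the median difference was -0.15 on the log2 scale for mural-like against SyS-like cells, and it shifted to -0.39 without scaling beyond totals. Calls there split into 3046 higher and 3940 lower with scaling and 2389 higher and 5799 lower without. Relative to the median, *Pdgfa* was higher in mural-like cells by 1.07.

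**Figure D3:**
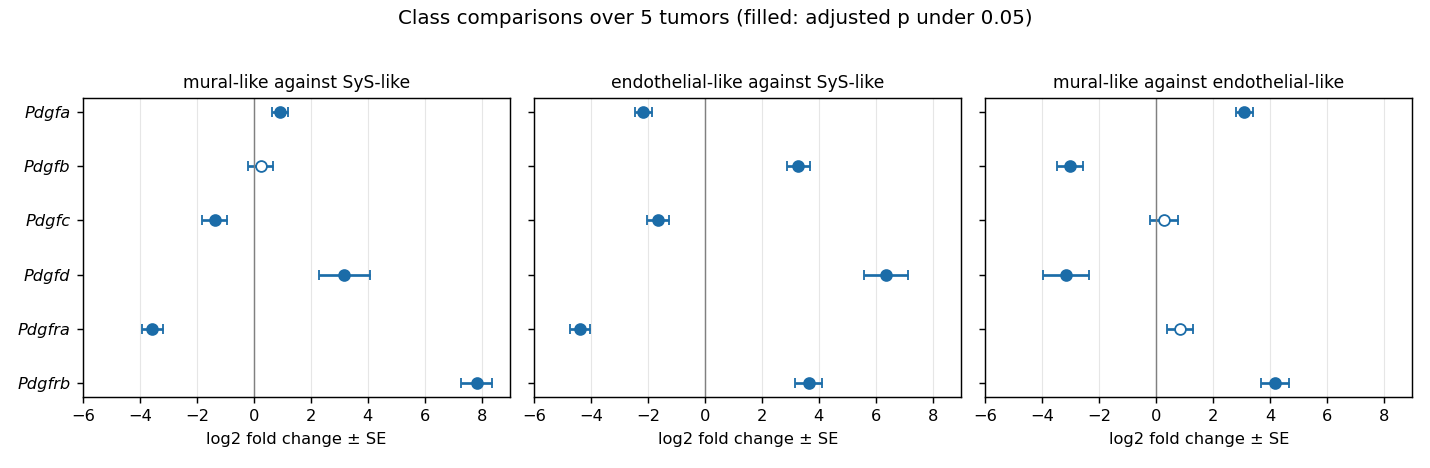
Log2 fold change ± SE (horizontal) of each gene (vertical) in the 3 comparisons of cell classes over 5 tumors, with filled points at an adjusted p under 0.05. The points run from -4.39 for *Pdgfra* in endothelial-like against SyS-like cells to 7.82 for *Pdgfrb* in mural-like against SyS-like cells, and the open points are *Pdgfb*, *Pdgfc* and *Pdgfra* in 1 comparison each.

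Of the 6 genes listed for proteases that cut PDGF precursors or latent PDGFs, 2 were higher and 2 lower in mural-like than in SyS-like cells (median log2 fold change 0.00, all genes -0.15), against 20.5% higher and 26.5% lower among all genes. *Plat*, tissue plasminogen activator, which cuts PDGF-C, was at 319 ± 84.9 CPM in mural-like, 101 ± 34.6 in endothelial-like and 5.23 ± 1.92 CPM in SyS-like cells (6.13 ± 0.29 for mural-like against SyS-like cells, adjusted p = 2.4e-09). *Plau*, urokinase, which cuts PDGF-D, was at 9.79 ± 6.45 CPM in mural-like and 25 ± 9.84 CPM in endothelial-like against 1.27 ± 0.716 CPM in SyS-like cells, higher by 3.28 ± 0.47 (adjusted p = 7.9e-05) and 4.63 ± 0.40 (adjusted p = 3.7e-07). *St14*, matriptase, went the other way in mural-like cells, at 2.26 ± 1.73 against 13.2 ± 7.09 CPM (log2 fold change -2.24 ± 0.33, adjusted p = 1.1e-04), a call lost with doublets kept (-0.71, adjusted p = 0.19) and at the automatic doublet threshold (-1.05, adjusted p = 0.093). The convertase gene *Pcsk6* was at 4.96 ± 8.09 against 33.7 ± 15.6 CPM there (-2.63 ± 0.84, adjusted p = 0.020), a call lost without BP replicate 1 (-2.43, adjusted p = 0.066) or MP (-2.15, adjusted p = 0.092). In endothelial-like against SyS-like cells 3 proteases were higher and 1 lower (median 0.30, all genes -0.17), against 25.8% higher and 34.9% lower among all genes. There *Pcsk5* fell (4.48 ± 1.09 against 57.5 ± 35.4 CPM, -3.25 ± 0.39, adjusted p = 7.6e-06) and *Furin* rose (72.1 ± 10.2 against 45.6 ± 8.23 CPM, 0.87 ± 0.13, adjusted p = 5.8e-05). In mural-like against endothelial-like cells 2 were higher and 3 lower (median -0.95, all genes 0.05), against 20.6% higher and 17.5% lower among all genes.

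The counts that follow stand beside 46.9% of all genes called between mural-like and SyS-like cells, 60.7% between endothelial-like and SyS-like cells and 38.1% between mural-like and endothelial-like cells. Of 19 effector genes, which relay the signal behind the receptors, 8 were higher and 2 lower in mural-like than in SyS-like cells (median 0.04), 11 higher and 3 lower in endothelial-like than in SyS-like cells (median 0.57), and 4 higher and 8 lower in mural-like than in endothelial-like cells (median -0.07). *Gab1*, a docking protein, was at 234 ± 101 CPM in mural-like and 192 ± 39.7 in endothelial-like against 31.9 ± 14.2 CPM in SyS-like cells, differences of 3.13 ± 0.33 (adjusted p = 4.6e-06) and 2.89 ± 0.32 (adjusted p = 4.0e-06). The kinase gene *Src* split the vascular classes, at 47.7 ± 8.08 CPM in mural-like, 20.7 ± 1.37 in SyS-like and 4.07 ± 0.884 in endothelial-like cells (3.55 ± 0.21 for mural-like against endothelial-like, adjusted p = 5.8e-08). Its relative *Fyn* was highest in endothelial-like cells (493 ± 69.6 CPM, mural-like 118 ± 14.2, SyS-like 50.8 ± 6.13, with -2.03 ± 0.14 for mural-like against endothelial-like, adjusted p = 2.1e-07). *Pik3cb*, a catalytic subunit of PI3-kinase, was at 3.45 ± 3.48 CPM in mural-like, 13.6 ± 3.42 in SyS-like and 37.8 ± 6.59 in endothelial-like cells (-3.26 ± 0.39, adjusted p = 1.9e-05). *Nck1*, an adaptor, was higher in endothelial-like than in SyS-like cells by 2.36 ± 0.22 (adjusted p = 7.4e-07), at 188 ± 45.6 against 43.3 ± 12.0 CPM. *Pik3r2* differed between the vascular classes on low values (6.04 ± 3.90 against 1.76 ± 1.03 CPM, 1.70 ± 0.41, adjusted p = 0.0054), a call lost with doublets kept (0.88, adjusted p = 0.11).

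Against the same shares of all genes (46.9%, 60.7% and 38.1% called in the 3 comparisons), of 11 genes that dampen receptor signaling 5 were higher and 1 lower in mural-like than in SyS-like cells (median 0.35), 4 and 4 in endothelial-like against SyS-like cells (median -0.11), and 6 and 1 in mural-like against endothelial-like cells (median 0.50). *Spry2* and *Spry4*, feedback inhibitors of receptor tyrosine kinases, were higher in mural-like than in SyS-like and endothelial-like cells. *Spry4* was at 129 ± 20.8 CPM there, 68.0 ± 5.49 in endothelial-like and 25.8 ± 7.75 in SyS-like cells (2.58 ± 0.19 for mural-like against SyS-like, adjusted p = 1.9e-07), and *Spry2* at 195 ± 45.1, 62.9 ± 16.4 and 79.2 ± 23.9 CPM (1.55 ± 0.26, adjusted p = 3.4e-04). *Dusp6*, a phosphatase of ERK, was lower in mural-like cells, at 45.8 ± 15.8 CPM against 175 ± 48.3 in SyS-like and 173 ± 38.5 in endothelial-like cells (-1.71 ± 0.17 and -1.91 ± 0.17, adjusted p = 2.5e-06 and 1.3e-06). *Ptprj*, a receptor phosphatase, was at 6.28 ± 2.83 CPM in endothelial-like against 56.2 ± 18.6 in SyS-like and 59.7 ± 17.9 in mural-like cells. *Cblb*, a ubiquitin ligase, was at 122 CPM in both vascular classes (SD 26.3 in mural-like, 17.2 in endothelial-like) against 39.2 ± 6.81 in SyS-like cells (1.87 ± 0.16 and 1.85 ± 0.16, adjusted p = 8.5e-07 and 3.2e-07), and *Ptpn1* was higher in endothelial-like than in SyS-like cells by 1.22 ± 0.14 (130 ± 3.93 against 65.3 ± 15.2 CPM, adjusted p = 6.0e-06).

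Against 46.9%, 60.7% and 38.1% of all genes called, of 11 immediate early genes, which growth factors switch on quickly, 5 were higher and 2 lower in mural-like than in SyS-like cells (median 0.32), 5 and 4 in endothelial-like against SyS-like cells (median -0.06), and 5 and 0 in mural-like against endothelial-like cells (median 0.43). The tumors were dissociated before capture, and the part of that step or of PDGF signaling in these levels was not tested. *Myc* was at 58.3 ± 11.6 CPM in mural-like, 38.2 ± 7.89 in endothelial-like and 11.7 ± 4.34 in SyS-like cells, higher than in SyS-like cells by 2.59 ± 0.24 (adjusted p = 1.7e-06) and 1.90 ± 0.23 (adjusted p = 8.9e-06). *Ier3* was likewise higher in both vascular classes, by 1.75 ± 0.25 and 1.83 ± 0.25 (adjusted p = 8.6e-05 and 2.9e-05), at 616 ± 116 and 668 ± 99.2 against 218 ± 78.5 CPM. *Egr2* was lower in endothelial-like than in SyS-like cells (10.1 ± 2.51 against 68.7 ± 22.3 CPM, -2.55 ± 0.28, adjusted p = 3.4e-06) and so was *Egr3* (50 ± 15.3 against 133 ± 52.4 CPM, -1.18 ± 0.21, adjusted p = 2.8e-04). *Fosb* and *Junb* were higher in mural-like than in SyS-like cells by 1.45 each (SE 0.17 and 0.23, adjusted p = 1.0e-05 and 1.5e-04), and *Fos* and *Egr1* exceeded endothelial-like cells by 0.74 ± 0.17 and 0.70 ± 0.14 (adjusted p = 0.0041 and 0.0015), calls that were both lost without sub-clusters led by another class (0.48 and 0.41, adjusted p = 0.077 and 0.098). Of the 3 relatives of the PDGF receptors listed, *Kit* was higher in endothelial-like than in SyS-like or mural-like cells (154 ± 26.0 CPM against 19.4 ± 5.87 in SyS-like and 4.22 ± 4.50 in mural-like cells, 3.26 ± 0.26 against SyS-like, adjusted p = 1.5e-07) and *Csf1r* was higher in mural-like than in SyS-like cells (15.1 ± 3.37 against 4.39 ± 1.80 CPM, 2.01 ± 0.32, adjusted p = 2.1e-04). The macrophage markers in mural-like cells summed to 50.2 to 126 CPM with none of 12 at 0, against 26.8 to 53.3 CPM in SyS-like cells, and their part in the *Csf1r* value was not tested. Over all 5 lists 21 of 49 tested genes were higher and 8 lower in mural-like than in SyS-like cells, 24 and 12 in endothelial-like against SyS-like cells, and 18 and 13 in mural-like against endothelial-like cells.

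The histology labels were compared by setting the 3 tumors with BP in the label against the 2 without, within 1 class at a time. In SyS-like cells *Pdgfa* and *Pdgfb* were higher on the biphasic side in every tumor, but no member was called. *Pdgfa* stood at 242, 265 and 162 CPM on the biphasic side and at 122 and 115 CPM on the other (223 ± 53.9 against 118 ± 4.49, log2 fold change 0.84 ± 0.28, adjusted p = 0.60). *Pdgfb* stood at 33.3, 29.5 and 21.9 against 14.7 and 4.89 CPM (1.46 ± 0.50, adjusted p = 0.60). *Pdgfra* also did not overlap, at 85.0, 91.6 and 93.1 against 82.4 and 25.3 CPM (89.9 ± 4.35 against 53.9 ± 40.4), but the difference of 0.67 ± 0.47 (adjusted p = 0.68) was 0.10 without PD+MP and passed at 1.71 (adjusted p = 0.048) without MP, when PD+MP alone stood for its side. Without PD+MP the *Pdgfa* difference was 0.86 and the *Pdgfb* difference 0.92. PD+MP was also the tumor with *Uty* in place of *Xist*, and poorly differentiated histology, sex and tumor cannot be told apart there.

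With edgeR 0 of 6 members and 0 of 20614 genes (0%) passed in SyS-like cells, where *Pdgfa* and *Pdgfb*, 2 of the members, and 8.28% of genes had an unadjusted p under 0.05. DESeq2 called 2.02% of genes and no member. Groups without overlap were found for 3 of 6 members, all higher on the biphasic side, against 24.5% of 23403 genes with at least 10 UMIs (15.8% higher, 8.73% lower). *Pdgfc* (19.6 ± 6.76 against 17.2 ± 8.81 CPM), *Pdgfd* (2.50 ± 1.95 against 0.765 ± 1.02) and *Pdgfrb* (4.99 ± 1.79 against 2.24 ± 2.37) overlapped between sides. None of the 50 listed pathway genes was called by edgeR or DESeq2, and 4 had an unadjusted edgeR p under 0.05.

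**Figure D4:**
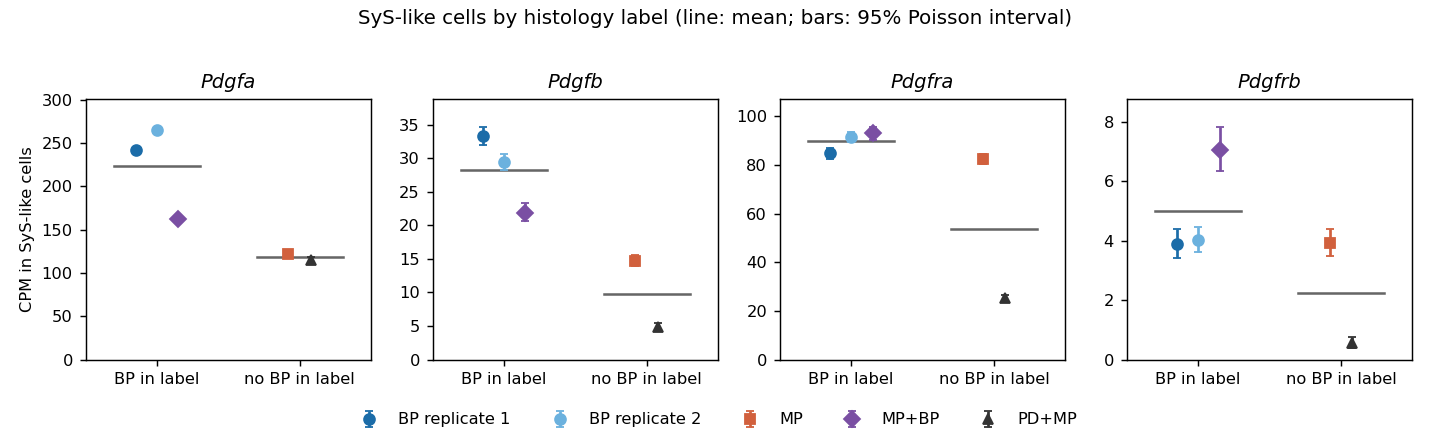
CPM of *Pdgfa*, *Pdgfb*, *Pdgfra* and *Pdgfrb* in SyS-like cells (vertical, from 0) for tumors with and without BP in the label (horizontal), with exact 95% Poisson intervals and grey lines at the mean of each side. *Pdgfa* sits between 162 and 265 CPM with BP in the label and at 122 and 115 CPM without, and PD+MP is the lowest point for each of the 4 genes.

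In mural-like cells 0 of 4 members tested were called, against 0.0104% of 9605 genes (6.54% at an unadjusted p under 0.05, 0.104% with DESeq2, which called no member). *Pdgfrb* was at 681 ± 131 CPM on the biphasic side and 657 ± 53.2 CPM on the other (0.00 ± 0.23, adjusted p = 1.0), and *Pdgfa* at 278 ± 41.6 and 285 ± 28.7 CPM (-0.09 ± 0.22, adjusted p = 0.98). *Pdgfd* was at 8.49, 4.29 and 10.1 against 22.2 and 11.7 CPM (-1.34 ± 0.46, adjusted p = 0.67), the single member at an unadjusted p under 0.05. *Pdgfc* and *Pdgfra* had too few mural-like UMIs to pass the filter on low counts. *Pdgfd*, lower on the biphasic side, and *Pdgfra*, higher there, did not overlap between sides, against 24.1% of 13882 genes (15.5% higher, 8.6% lower).

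In endothelial-like cells 0 of 6 members were called, against 0.00783% of 12775 genes (8.81% unadjusted, 0.211% with DESeq2, no member). *Pdgfa* was at 35.6, 37.4 and 62.0 against 28.7 and 8.58 CPM, and its difference of 0.92 ± 0.42 (adjusted p = 0.58) passed when all genes with at least 1 count were kept (0.91, adjusted p = 0.017). *Pdgfra* was at 3.33, 8.10 and 4.13 against 1.23 and 0 CPM (2.18 ± 0.72, adjusted p = 0.49), on 66 UMIs in all tumors together. *Pdgfb*, the ligand of mural recruitment, was at 144 ± 24.2 CPM on the biphasic side and 182 ± 45.6 CPM on the other (-0.32 ± 0.21, adjusted p = 0.68), and *Pdgfd* at 95.3 ± 26.2 and 135 ± 85.2 CPM (-0.40 ± 0.38, adjusted p = 0.81). *Pdgfa*, *Pdgfc* and *Pdgfra* were higher and *Pdgfrb* lower on the biphasic side without overlap, 4 of 6 members against 26.7% of 16515 genes (16.4% higher, 10.3% lower). The *Pdgfrb* sides overlapped once the sub-cluster led by mural and fibroblast markers was left out. They then stood at 7.02, 7.51 and 6.09 against 6.67 and 23.5 CPM.

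Within the endothelial-like class, 243 tip-like cells were set apart by markers of sprouting such as *Apln* and *Esm1*, and 3 tumors had at least 20 of them. *Pdgfb*, for which tip cells are a known source, was at 103, 118 and 183 CPM in the tip-like cells of BP replicate 1, BP replicate 2 and MP, against 155, 117 and 145 CPM in their other endothelial-like cells (0.15 ± 0.17, adjusted p = 0.60). *Pdgfd* was at 33.7, 32.1 and 61.6 CPM against 84.6, 84.8 and 77.2 CPM, lower in 3 of 3 tumors (-0.65 ± 0.22, adjusted p = 0.040). That call was 1 of 5 members tested, against 19.9% of 11257 genes (10.2% higher, 9.73% lower). It was kept in 7 of 15 alternatives and lost in the others, among them DESeq2, which called 11.1% of genes (adjusted p = 0.12), leaving out BP replicate 1 (0.34) or BP replicate 2 (0.20) and fitting without the tumor block (0.13), and the sign changed with doublets kept (0.25). *Pdgfrb* was at 35.8, 10.7 and 1.34 CPM against 12.7, 46.7 and 59.6 CPM (-1.15 ± 0.57, adjusted p = 0.17), and its estimate ran from -4.54 to 1.37 over the alternatives, passing at -3.55 (adjusted p = 4.4e-09) without BP replicate 1, at -1.24 (0.004) with no filter, at -4.54 (2.4e-08) with doublets kept, at -2.49 (3.3e-06) at the automatic doublet threshold and at -2.15 (0.0068) with at most 10% mitochondrial UMIs. *Pdgfb* passed with doublets kept (0.73, adjusted p = 2.2e-04). *Pdgfa* (24.4 ± 30.1 against 34.9 ± 4.73 CPM) did not pass (-0.31 ± 0.38, adjusted p = 0.65), but did at -1.74 (adjusted p = 0.0038) without BP replicate 1 and at -2.47 (adjusted p = 1.7e-09) with doublets kept. The 12 mural markers summed to 112 to 710 CPM in the tip-like cells of 4 tumors, with *Cnn1* at 0, and to 652 to 1600 CPM in the other endothelial-like cells of 5, with none at 0, and their part was not tested. Of the listed genes 4 were higher and 7 lower in tip-like cells, led by *Plau* (57.7 ± 26.8 against 22.8 ± 5.36 CPM, 1.5 ± 0.24, adjusted p = 6.6e-05), *Gab1* (-0.96 ± 0.18, adjusted p = 3.4e-04) and *Stat3* (-0.77 ± 0.14, adjusted p = 1.9e-04), and 25.9% of all calls were higher without scaling beyond totals, against 51.2% with it.

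Epithelial-state SyS-like cells, 118 cells with keratin and claudin genes, were frequent enough in BP replicate 1 (33 cells) and MP+BP (79) only. They held *Pdgfra* at 31.4 and 57.4 CPM, against 85.9 and 94.7 CPM in the other SyS-like cells of these tumors. The difference was -1.14 ± 0.32 (adjusted p = 0.0074). *Pdgfrb* was at 0 and 0.918 CPM, on 0 and 2 UMIs, against 3.95 and 7.33 CPM (-3.50 ± 1.03, adjusted p = 0.013). Both receptor genes were thus lower in the epithelial-state cells of both tumors, 2 of 6 members called against 7.54% of 18349 genes (3.78% higher, 3.75% lower). With 1 residual degree of freedom the calls leaned on the spread shared across genes, and neither passed with DESeq2, which called 3.72% of genes (adjusted p = 0.097 for *Pdgfra* and 0.17 for *Pdgfrb*) or without the tumor block (0.28 and 0.26). The ligand genes did not pass: *Pdgfa* was at 232 and 217 against 242 and 160 CPM (0.11 ± 0.29, adjusted p = 0.94), *Pdgfb* at 43.8 and 23.9 against 33.1 and 21.8 CPM (0.18 ± 0.35, adjusted p = 0.91) and *Pdgfc* at 28.6 and 56.0 against 17.6 and 25.8 CPM (0.84 ± 0.35, adjusted p = 0.15). *Pdgfd* had 1 UMI in all (0.476 ± 0.673 against 2.93 ± 2.61 CPM, adjusted p = 0.23). *St14*, the matriptase gene, was higher in these cells (79.6 ± 26.4 against 15.8 ± 2.37 CPM, 2.23 ± 0.33, adjusted p = 3.4e-09), *Pik3cb* too (1.5 ± 0.37, adjusted p = 0.0012), and *Pcsk5* (-2.0 ± 0.39, adjusted p = 1.1e-05) and *Pik3r1* (-0.99 ± 0.30, adjusted p = 0.020) were lower. None of these passed without the tumor block (adjusted p = 0.069 for *St14*, 0.23 for *Pik3cb*, 0.38 for *Pcsk5* and 0.26 for *Pik3r1*), and *Pik3r1* kept its call in 7 of 13 alternatives.

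Within the mural-like class, 135 smooth-muscle-like cells are set beside the other mural-like cells by value, and the difference was not tested. In the 4 tumors with at least 10 of them, BP replicate 1, MP, MP+BP and PD+MP, *Pdgfrb* was at 399, 427, 128 and 530 CPM in smooth-muscle-like cells and at 726, 741, 714 and 697 CPM in the others. The lower value was thus on the smooth-muscle-like side in 4 of 4 tumors. In MP+BP the 31 smooth-muscle-like cells held 311708 UMIs, against 775390 in 231 other mural-like cells. The part of this difference in depth in the value of 128 CPM was not tested. *Pdgfa* was at 412, 397, 269 and 311 CPM in smooth-muscle-like cells and at 311, 290, 270 and 225 CPM in the others, higher in 3 of 4. *Pdgfb* stood at 19.6 to 54.5 CPM in smooth-muscle-like cells on 3 to 17 UMIs.

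The genes whose levels followed each member most closely over 33 sums of at least 50 cells, among 12947 genes, are given as a description, since the sums share tumors and classes. *Pdgfrb* was tracked most closely, by *Il34* (Pearson r = 0.96), *Aspn* (0.94) and *Art3* (0.93). *Pdgfra* was tracked by *2700069I18Rik*, *Slc1a3* and *Fzd1* (0.92 each) and *Pdgfd* by *Itih5*, *Cavin3* and *Ramp2* (0.89 each). The other ligand genes had looser partners, *Fuca1* (0.87), *Scpep1* (0.87) and *Erp29* (0.85) for *Pdgfc*, *Gm16552* (0.84), *Slc6a9* (0.82) and *Prkar1b* (0.81) for *Pdgfa*, and *Pald1* (0.81), *Disc1* (0.81) and *Rapgef5* (0.80) for *Pdgfb*.

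A SyS-like sub-cluster of 1029 cells, 3.90% of the class, was led by 6 macrophage markers, among them *Lyz2* and *C1qa*. *Pdgfb*, a gene of macrophage-like cells here, was at 34.6 CPM (29.2 to 40.7) in it and at 20.7 CPM (20.2 to 21.2) in the other SyS-like cells. *Pdgfra* was at 94.7 and 74.8 CPM and *Pdgfa* at 203 and 184 CPM. Leaving out sub-clusters of this kind moved no member's SyS-like mean by more than the spread between tumors.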

How the data were processed

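Cells of 5 mouse tumors were profiled with droplet-based 3′ single-cell RNA sequencing. The deposited values are UMI counts per gene and cell in matrices that, per the file headers, the authors made with Cell Ranger 7.2.0. The submitters' processing notes name mm10, and the reference release and strand setting were not given in the sources used here. Members were chosen by name and not by their values, but members and lists were chosen with earlier results of these data known. Cells with at least 750 genes and at most 25% mitochondrial UMIs were kept, and the highest Scrublet scores were removed at 0.8% per 1000 cells, because the automatic threshold had marked 2 cells in PD+MP. Clusters (scanpy 1.11.5, leidenalg 0.10.2, 3000 features, 30 components, 20 neighbors, resolution 1) were named from fixed markers by ranking genes against the 25th percentile of clusters. This rule was set after the data were seen, since a first one left large SyS clusters unnamed. Counts were summed per tumor and class of at least 20 cells (levels from 10) and tested with edgeR 4.0.16 (TMM, filterByExpr, quasi-likelihood, Benjamini-Hochberg) in R 4.3.3, with the tumor as a block between classes. DESeq2 1.42.0, other scalings, filters, cell cutoffs and leaving out each tumor were alternatives. The scripts were tested on simulated data. Named genes were the 6 members, the called genes of each list with the largest changes, and the 3 genes most like each member. Each BP tumor entered as its own sample, as labelled. Their SyS-like sums were not a repeat deposit of 1 library (median chi-square 5.96 over 20334 genes, against 0.455 from counting noise), which says nothing of whether they share an animal.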

Additional observations from a re-analysis of the deposited data

Results flagged for a closer look

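In 30 groups of 5 tumors (1 gene in 1 class, with tumors that carry different labels), 3 had an extreme tumor past the 95% critical value of Dixon's test, and chance alone marks about 1 group in 20. *Pdgfra* in SyS-like cells was 25.3 CPM in PD+MP, under 82.4 to 93.1 CPM in the others. *Pdgfrb* in endothelial-like cells was 15 CPM in BP replicate 1, under 43.8 to 51.9 CPM elsewhere. Of its 611 endothelial-like cells 12 were in the sub-cluster led by *Col3a1* and *Rgs5*, against 7 of 81 in PD+MP, which stood at 51.5 CPM. *Pdgfrb* in macrophage-like cells was 2.27 CPM (1.24 to 3.81) on 14 UMIs in BP replicate 1, above 0.652 to 1.00 CPM on 2 to 6 UMIs in the others. Its Poisson interval overlapped that of each other tumor.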

How the results depend on the processing

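Of the log2 fold changes of members under the alternatives, 20 lost and 12 gained a call without a change of sign, 22 changed sign, and 752 did none of these. Counted among the 752 was *Pdgfrb* for the biphasic label in mural-like cells, which was 0.00 and took either sign (-0.14 without BP replicate 2 to 0.15 without MP). Of listed genes 75 lost a call without a change of sign, 5 changed sign and 1236 did neither. A call lost together with a change of sign, as for tip-like *Pdgfd* with doublets kept, was counted as a change of sign only. The number of members called ran from 3 to 5 for mural-like against SyS-like cells when 1 tumor was left out (3 without MP), from 6 to 6 for endothelial-like against SyS-like, from 4 to 5 for mural-like against endothelial-like, from 0 to 1 for the biphasic label in SyS-like (1 without MP), from 0 to 0 in mural-like and in endothelial-like cells (1 there with no filter), and from 0 to 2 for tip-like cells. For tip-like cells it was 2 with no filter or the automatic doublet threshold, 4 with doublets kept, and 0 with DESeq2, without the tumor block, at 1500 genes per cell or at resolution 2. For epithelial-state cells it was 0 with DESeq2, without the tumor block or at resolution 2, and 1 with doublets kept, the automatic threshold or 1500 genes. With DESeq2, 11.1% of all genes were called for tip-like and 3.72% for epithelial-state cells. For the other settings in these counts the share of all genes called is not given here. Those counts of members therefore have no background to be set against. The cause was not tested for any of these shifts in count. With doublets kept, mean CPM moved to 15.6 (*Pdgfra*) and 569 (*Pdgfrb*) in mural-like, 58.0 (*Pdgfa*) and 10.9 (*Pdgfra*) in endothelial-like, and 0.63 (*Pdgfd*), 12.7 (*Pdgfra*) and 2.55 (*Pdgfrb*) in macrophage-like cells, where *Pdgfra* was 5.27 at the automatic threshold. Endothelial-like *Pdgfrb* was 12.5 CPM without sub-clusters led by another class and 10.2 CPM without those with 3 or more leading markers of another class. Signs changed for *Pdgfb* in mural-like against SyS-like cells (-0.08 without sub-clusters led by another class) and *Pdgfc* in mural-like against endothelial-like cells (0.79 to -0.21 with 1 tumor left out, -0.17 without MP, -0.21 without MP+BP). For the biphasic label they changed for *Pdgfc* in SyS-like cells (-0.29 to 0.72 with 1 tumor left out, -0.17 without MP+BP, -0.29 without PD+MP), *Pdgfa* in mural-like cells (-0.22 to 0.09 with 1 tumor left out, the latter without MP, 0.08 with doublets kept, 0.01 at the automatic threshold), *Pdgfb* in mural-like cells (-0.19 without MP+BP, up to 0.44) and *Pdgfd* in endothelial-like cells (-0.99 to 0.25, the latter without PD+MP). In tip-like cells they changed for *Pdgfa* (-1.74 without BP replicate 1, 0.08 without BP replicate 2, 0.14 without MP, 0.25 and 0.43 without either kind of sub-cluster), *Pdgfb* (-0.05 with no scaling, -0.15 without MP, 0.45 without BP replicate 1), *Pdgfc* (-0.73 without MP, 0.30 without BP replicate 2, 0.29 at 10% mitochondrial share, 0.02 at resolution 2), *Pdgfrb* (-3.55 without BP replicate 1, 0.30 without MP, 1.37 without sub-clusters with 3 or more markers) and, with doublets kept, *Pdgfd* (0.25), *Plau* (-0.14), *Pik3ca* (0.02), *Socs3* (-1.25), *Fos* (-0.74) and *Ier2* (-0.31). Leaving out a tumor was not possible for epithelial-state cells, where 1 pair would remain, and tip-like cells were not found with members and listed genes as features. Where leaving out a tumor left 1 on a side, that tumor is assumed to vary like the rest. No paired analysis was possible because the labels share no replicate numbers between the histology groups; the class comparisons are blocked by tumor. Low mural-like counts of *Pdgfc* and *Pdgfra* limit what their label comparison can show.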
